A study of Nothobranchius furzeri with 20 samples.

Results

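Brains of young male turquoise killifish aged 7 weeks were set against brains aged 5 weeks, 5 libraries a side, picked by their age labels from a series of 20 libraries. The turquoise killifish (Nothobranchius furzeri) is an annual fish of temporary ponds that grows, matures and ages within a single rainy season, and GRZ is an inbred, particularly short-lived laboratory strain. All 10 libraries came from untreated GRZ males as far as the labels say, no allele or agent is named, and the tissue was brain. The libraries of 10 and 14 weeks carry the same strain, sex and tissue labels. They enter below only as 10 further libraries that help to estimate the spread between libraries, and as later points on the course of single genes. The labels do not say whether a library is 1 animal or a pool, so p-values measure the spread between these samples, which may in part be technical.

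In teleost fish the brain goes on growing after hatching, fed by radial glia that act as neural stem cells, and this production of new neurons declines with age. The step compared here lies in early adult life, when a fast-maturing strain has begun to reproduce and still grows. The files give no names for the identifiers in the count table, and 0 of 26739 identifiers occur in the RefSeq gene table for this species. No function is therefore given for any gene, no list of neuronal or glial genes could be counted, and the brain label could not be checked against marker genes. Genes are described by level, by length and by course over age.

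Depth was lowest in 5-week replicate 5, with 12.004 M counts (M, mega), and highest in 7-week replicate 4, with 30.7 M, and a filter on low counts left 19474 genes to test. One 7-week library, replicate 3, stood apart from the other 9. Its median Spearman rho with them was 0.927, against 0.955 to 0.987 in the others. Among 11965 genes with a mean of at least 10 CPM (counts per M of the library's TMM-scaled total), 1658 were down by over 2-fold in it against the median of its age mates, where the other 7-week libraries had 11 to 52. A further library, 5-week replicate 5, had 635 such genes, against 40 to 154 in the rest of its age. The counts of called genes and the 6 called genes are therefore given with and without 7-week replicate 3.

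With all libraries in the fit, 6 genes differed between the ages, of which 3 were higher at 7 weeks and 3 were lower (adjusted p below 0.05 by the quasi-likelihood test of edgeR). That is 0.0308% of the genes tested. The 6 genes had 132 to 4602 reads in each of the 10 libraries. In whole brain, fewer cells of a type and less RNA per cell cannot be told apart. All 5 libraries of 7 weeks lay on one side of all 5 libraries of 5 weeks in each of the 6, which had been chosen for differing between these libraries. Without adjustment, p was below 0.05 in 2312 genes, 11.9% of those tested, and 1587 of them were lower. Without 7-week replicate 3 the total at an unadjusted p below 0.05 was 4253 of 19588 tested genes, 1801 higher and 2452 lower. Scaling by DESeq2 size factors gave 3 higher and 2 lower genes. When only the 10 libraries of 5 and 7 weeks entered the fit, edgeR called 0 genes, with 1388 at an unadjusted p below 0.05, while DESeq2, fitted to all libraries, found 103 higher genes and 199 lower ones.

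Nfu_g_1_000972 showed the larger rise of the pair of rising identifiers named here. Its level was 23.9, 35.3, 34.5, 29.9 and 43.6 CPM in 5-week replicates 1 to 5 and 58.9, 58.6, 76.7, 53.3 and 64.3 CPM in 7-week replicates 1 to 5. Every 7-week library was above every 5-week library, and replicate 3 was the highest of all. The means were 33.4 ± 7.27 (SD, n = 5) and 62.4 ± 8.91 CPM (SD, n = 5), and the log2 fold change came to 0.90 ± 0.14 (SE, edgeR adjusted p = 0.015). Without 7-week replicate 3 the log2 fold change was 0.81 ± 0.14 (SE, edgeR adjusted p = 0.012), and the call was lost without 5-week replicate 4 (adjusted p = 0.056). The later means were 60.08 ± 4.42 CPM (SD, n = 5) for 10 weeks and 48.9 ± 7.41 CPM (SD, n = 5) for 14 weeks.

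Nfu_g_1_001000 was listed in the row next to it in the count table, and what the row order stands for is not given. It was measured at 38.1, 49.96, 42.5, 41.5 and 55.3 CPM in 5-week replicates 1 to 5 and at 76.8, 81.7, 89.1, 81.9 and 83.6 CPM in 7-week replicates 1 to 5. The lowest 7-week library was clear of the highest 5-week library. The log2 fold change was 0.86 ± 0.12 (SE, edgeR adjusted p = 0.0064), and without 7-week replicate 3 it was 0.82 ± 0.12 (adjusted p = 0.0036). Its mean then went from 82.6 ± 4.43 CPM (SD, n = 5) at 7 weeks to 67.3 ± 7.19 CPM at 10 weeks and 54.2 ± 8.10 CPM at 14 weeks. Both genes had their single highest library at 7 weeks and their highest 5-week value in 5-week replicate 5. In Nfu_g_1_000972, however, 10-week replicate 3, at 65.2 CPM, lay above every 7-week library but replicate 3.

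Gene length was solved from the deposited RPKM values. Per kilobase, Nfu_g_1_000972 (1323 bases) was at a mean of 25.3 RPKM and Nfu_g_1_001000 (3147 bases) at 14.4 RPKM at 5 weeks. Each library was scaled by its own TMM-scaled total. At 7 weeks these levels were 47.1 and 26.3 RPKM. The shorter gene had the higher level per length at both ages.

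The third rising gene had a 5-week mean of 16.8 ± 3.10 CPM (SD, n = 5) and a 7-week mean of 28.3 ± 4.33 CPM (SD, n = 5), and its log2 fold change came to 0.75 ± 0.12 (SE, edgeR adjusted p = 0.024). Without 7-week replicate 3 it came to 0.74 ± 0.13 (SE, adjusted p = 0.013). Its 7-week libraries were at 23.0 CPM or more and its 5-week libraries at 20.2 CPM or less. The 10-week libraries, at 16.8 to 18.2 CPM, and the 14-week libraries, at 15.6 to 19.6 CPM, lay within the 5-week range, so that among all 4 ages the higher level was found at 7 weeks. Its call was lost without 5-week replicate 3 (adjusted p = 0.060), 5-week replicate 4 (0.063) or 7-week replicate 2 (0.14).

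Among the falling genes, Nfu_g_1_022806 changed most and was the one called gene beyond 2-fold. It had 11.8, 12.6, 13.3, 16.3 and 18.2 CPM in 5-week replicates 1 to 5, and 7.23, 6.03, 7.85, 5.85 and 8.48 CPM in 7-week replicates 1 to 5. The highest 7-week value was below the lowest 5-week value. The log2 fold change was -1.02 ± 0.14 (SE, edgeR adjusted p = 0.0064), and -1.07 ± 0.15 (adjusted p = 0.0035) without 7-week replicate 3. The later levels were higher again. The 10-week mean was 17.8 ± 1.95 CPM (SD, n = 5), the 14-week mean 21.06 ± 3.04 CPM (SD, n = 5) and the 5-week mean 14.4 ± 2.70 CPM (SD, n = 5), and no 10- or 14-week library was as low as any 7-week library.

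Nfu_g_1_018307 is a gene of 6730 bases and the most strongly expressed of the 6 in CPM. It had 155, 192, 154, 179 and 144 CPM in 5-week replicates 1 to 5 and 86.1, 103, 110, 95.03 and 82.4 CPM in 7-week replicates 1 to 5. The groups did not overlap. The log2 fold change was -0.79 ± 0.11 (SE, edgeR adjusted p = 0.0069), and without 7-week replicate 3 it was -0.86 ± 0.12 (adjusted p = 0.0025). All but 1 of the later libraries were below every 5-week library, at 99.4 to 126 CPM at 10 weeks and 107 to 151 CPM at 14 weeks.

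The third falling gene went from a 5-week mean of 13.4 ± 0.849 CPM (SD, n = 5) to a 7-week mean of 8.12 ± 1.30 CPM (SD, n = 5), which came to -0.72 ± 0.13 (SE) as a log2 fold change (edgeR adjusted p = 0.043). Without 7-week replicate 3 it came to -0.74 ± 0.13 (SE, adjusted p = 0.015). Its 10-week libraries, at 10.8 to 15.4 CPM, and its 14-week libraries, at 14.1 to 18.4 CPM, were again above every 7-week library, which ran from 6.12 to 9.57 CPM. It was the least stable call. It was kept in 7 of the 20 fits that left out 1 library and lost in the others (highest adjusted p 0.15, without 7-week replicate 2), and limma-voom gave an adjusted p of 0.052. Nfu_g_1_001000, Nfu_g_1_022806 and Nfu_g_1_018307 were called in all 20 of these fits. With only the 10 libraries of 5 and 7 weeks in the fit, none of the 6 was called and their adjusted p-values ran from 0.32 to 0.48, with log2 fold changes between -1.03 and 0.90.

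**Figure D1:**
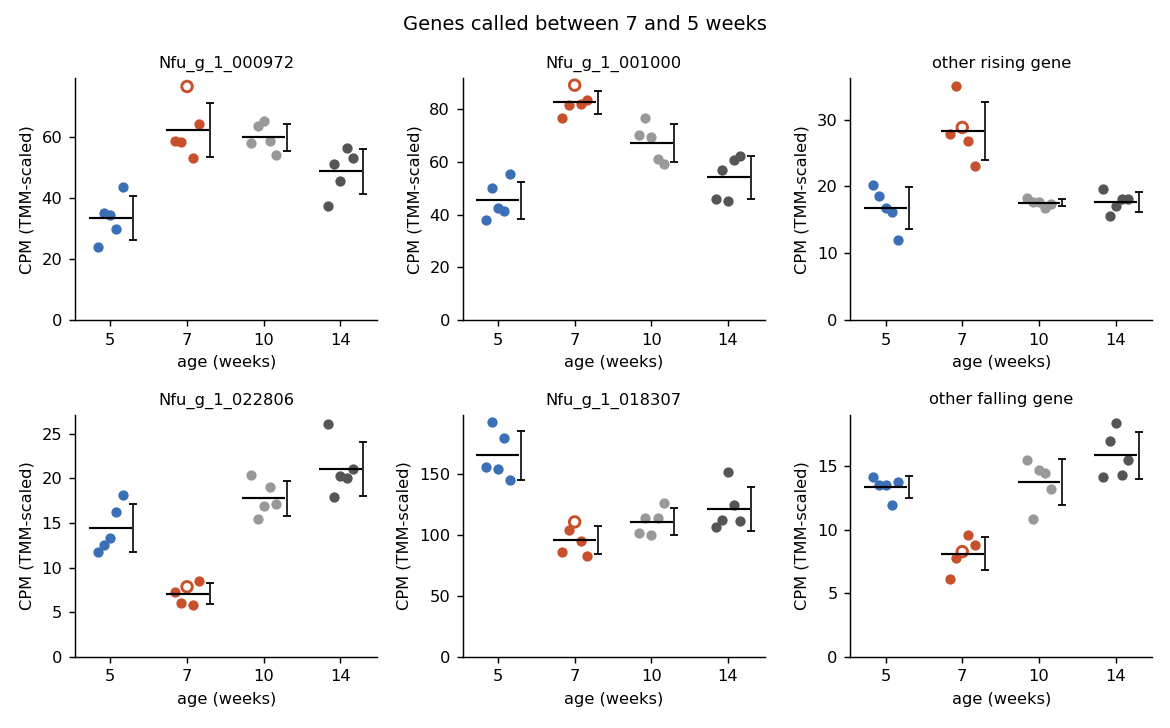
Level in CPM, scaled by TMM, of the 6 genes called between 7 and 5 weeks, by age in weeks (points, single libraries, with 7-week replicate 3 as an open circle; line, mean; bar beside it, ± SD, n = 5). The 7-week libraries lie wholly above the 5-week libraries in the upper row and wholly below them in the lower row. The open circle lies among its age mates or beyond them, except in Nfu_g_1_018307, where it is the 7-week library nearest the 5-week libraries.

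In these 6 genes 7-week replicate 3 lay on the same side of the 5-week libraries as its age mates, as separation of all libraries requires. In most of the 251 genes called without replicate 3, it did not. Without it the number of called genes went from 6 to 251, of which 113 were higher and 138 lower at 7 weeks (edgeR, adjusted p below 0.05), 0.577% and 0.705% of the 19588 genes then tested. That number was 8, with 2 higher and 6 lower, when only the libraries of 5 and 7 weeks entered the fit, and 32 or 31 when 7-week replicate 2 or 4 was left out as well. The median SE of a log2 fold change went from 0.178 to 0.161. The median SD of log2 CPM between the 7-week libraries, over genes with a mean of at least 10 CPM, was 0.268 with and 0.133 without replicate 3, beside 0.223 at 5 weeks. Leaving out another library of 5 or 7 weeks gave 4 to 13 called genes in all, the 13 without 7-week replicate 5.

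**Figure D2:**
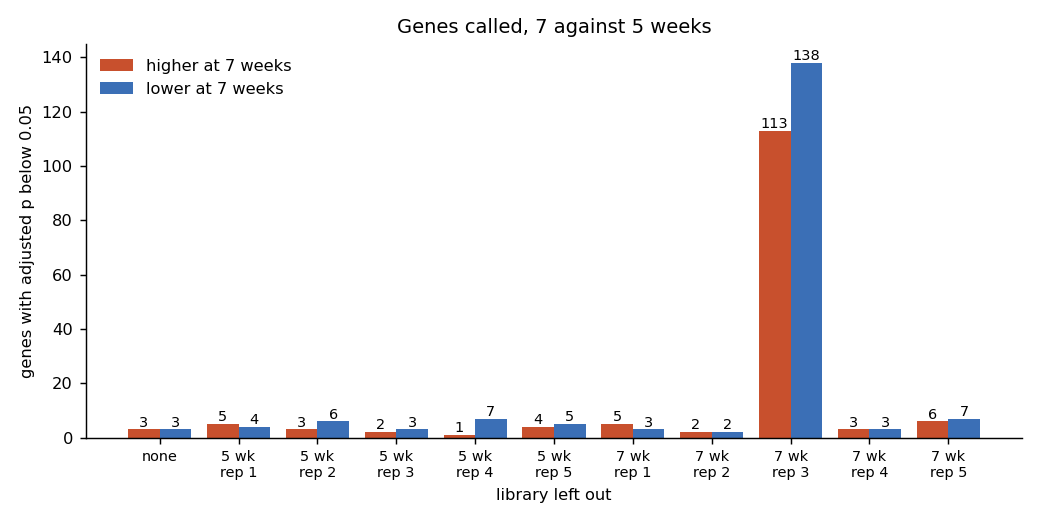
Number of genes with an adjusted p below 0.05 (edgeR, 7 against 5 weeks), higher and lower at 7 weeks, with no library left out and with each of the 10 libraries left out in turn. The count is 113 higher and 138 lower without 7-week replicate 3, and no other bar exceeds 7.

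A count that uses no model of the spread moved in the same way. With all libraries, and with CPM scaled by TMM, 123 genes (0.632%) had every 7-week library above every 5-week library and 217 genes (1.11%) every 7-week library below. With replicate 3 set aside, the 4 other 7-week libraries were above all 5-week libraries in 1251 genes (6.42%) and below in 716 genes (3.68%). Fewer libraries separate more readily, but leaving out any other 7-week library gave only 146 to 226 genes above and 247 to 321 below. Other libraries that moved such a count by over 1.5 times were 5-week replicate 1 (194 above), 5-week replicate 3 (402 below), 5-week replicate 5 (218 above and 369 below) and 7-week replicate 1 (226 above). In the 1251 genes that the 4 libraries raised, replicate 3 lay above all 5-week libraries in 123, within their range in 248 and below all of them in 880. In the 716 genes that the 4 libraries lowered, it lay below all 5-week libraries in 217, within their range in 265 and above all of them in 234. Its position over all tested genes is not given here. How far these counts exceed its general tendency to leave the 5-week range therefore cannot be read from them.

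The 113 genes higher at 7 weeks without replicate 3 changed moderately, with a median log2 fold change of 0.58, a range of 0.27 to 1.61 and 6 genes beyond 2-fold. Their median level was 61.8 CPM. The median log2 fold change of the 138 lower genes was -0.69, with 33 beyond 2-fold, and a median level of 14.6 CPM. The median log2 fold change of all tested genes in that fit was -0.04. Complete separation of the 4 libraries from the 5-week libraries was seen in 108 of the higher and 127 of the lower genes, which were chosen on these libraries. All 6 genes of the fit of all libraries were among the 251.

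In replicate 3 itself the 251 genes did not, on the median, show the difference of its age mates. The 6 genes called with all libraries, which are among the 251, did show it, but replicate 3 had a part in choosing those 6. Relative to the 5-week mean, its median log2 difference over the 113 higher genes was -0.18, with 34 genes on the same side as the 4 other libraries and 79 on the opposite side. Over the 138 lower genes the median was -0.01, with 69 genes on each side. Of the higher genes, 21 were above all 5-week libraries in replicate 3, 42 within their range and 50 below all of them. Of the lower genes, 38 were below all 5-week libraries, 65 within and 35 above. No share over all tested genes is given beside these counts. With replicate 3 included the median log2 fold change was 0.46 for the higher and -0.54 for the lower genes, and 3 of each were called.

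**Figure D3:**
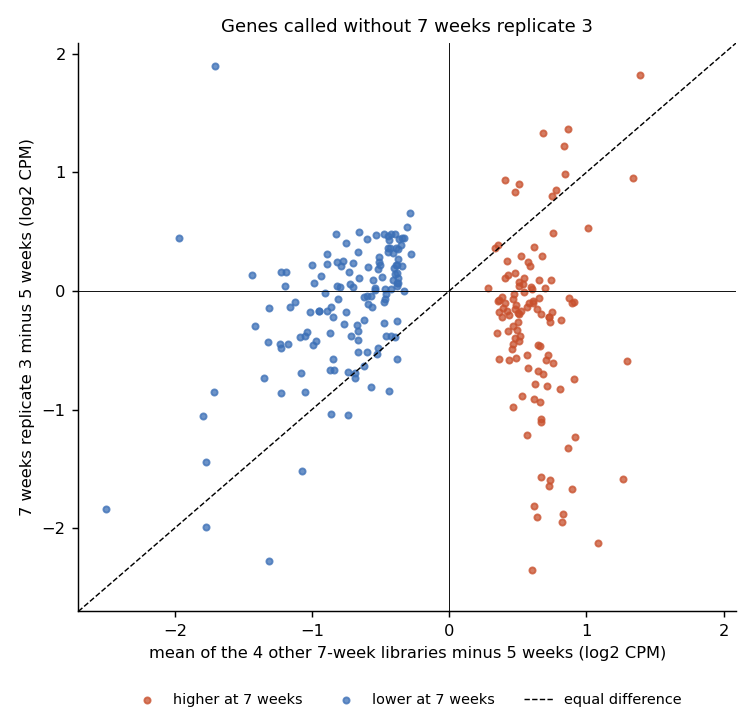
Difference from the 5-week mean in log2 CPM for the 251 genes called without 7-week replicate 3 (one point per gene), as the mean of the 4 other 7-week libraries on the horizontal axis and in replicate 3 on the vertical axis. Points of both directions spread around 0 on the vertical axis, where replicate 3 had medians of -0.18 for higher and -0.01 for lower genes, and few lie on the dashed line of equal difference.

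At later ages the same genes lay between their 5-week and 7-week levels on the median. For the 113 higher genes, the median difference from the 5-week mean was 0.60 at 7 weeks in the 4 libraries, 0.40 at 10 weeks and 0.26 at 14 weeks in log2 CPM. For the 138 lower genes these medians were -0.66, -0.39 and -0.27. All 3 differences share the 5-week libraries, so their common sign is no separate evidence. Over all tested genes the same medians were -0.02, 0.01 and 0.01. Library by library, the median of the higher genes ran from 0.38 to 0.44 at 10 weeks and from 0.12 to 0.34 at 14 weeks, and that of the lower genes from -0.43 to -0.32 and from -0.30 to -0.21. The 4 libraries of 7 weeks, at 0.52 to 0.65 and -0.66 to -0.58, were farther out than every later library in both sets, and they were among the libraries that chose the genes.

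**Figure D4:**
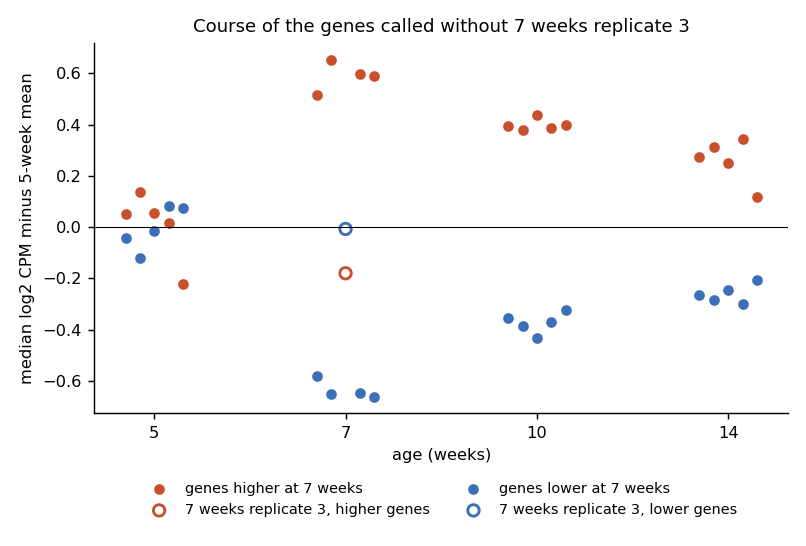
Median over genes of log2 CPM minus the 5-week mean, in each of the 20 libraries by age in weeks, for the 113 genes higher and the 138 genes lower at 7 weeks without replicate 3 (points, single libraries; open circles, replicate 3). The 10-week libraries sit at 0.38 to 0.44 and -0.43 to -0.32, between the 7-week libraries and 0, and the open circles lie at -0.18 and -0.01.

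Gene length moved with these lists. The higher genes were of a median length of 5423 bases and the lower genes one of 2354.5 bases, beside 2670 bases over all tested genes. Of the 113 higher genes, 59 were in the longest of 5 equal classes of tested genes (5287 bases and over), and of the 138 lower genes 12. In the shortest class (up to 1112 bases) there were 11 higher and 26 lower genes. With a smooth term for gene length in each library, a fit added once the lengths had been seen, edgeR called 97 higher and 150 lower genes without replicate 3, and 79 of the 113 and 113 of the 138 were called in the same direction. In the longest class that fit called 27 genes higher and 43 lower. Fitted to all 20 libraries, the length term gave 14 higher genes and 17 lower ones. Each of the 6 genes described singly was called with it, at adjusted p-values of 0.0025 to 0.034.

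Single libraries also differed by gene length. The medians of the length classes lay farthest apart in replicate 3. Over genes with a mean of at least 10 CPM, its median log2 deviation from the median of its age mates was 0.38 in the shortest and -0.40 in the longest class, and the Spearman rho of deviation with length was -0.34 across genes. The rho was 0.31 and 0.35 in 7-week replicates 4 and 5, which share their age mates with it, and ran from -0.18 to 0.27 in the other 7 libraries. In 5-week replicate 5 the deviation was -0.11 in the shortest and -0.24 in the longest class. In 7-week replicate 3 the classes in between were at 0.145, 0.295 and 0.037, from shorter to longer. The 1658 genes more than 2-fold low in it had a median length of 3034.5 bases, and the 323 high ones 1301 bases. Over all genes with a mean of at least 10 CPM the median length was 3301 bases. Gene length is not part of the age labels, and why libraries differ by it was not tested.

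**Figure D5:**
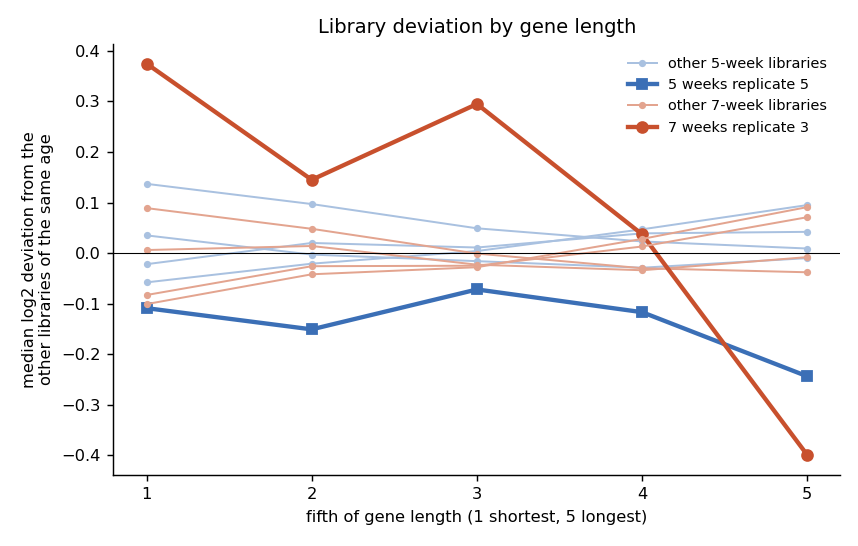
Median log2 deviation of each of the 10 libraries from the median of its age mates, in 5 classes of gene length with equal numbers of tested genes, over genes with a mean of at least 10 CPM. Replicate 3 of 7 weeks runs from 0.38 in the shortest to -0.40 in the longest class, and 5-week replicate 5 lies below 0 throughout, lowest at -0.24 in the longest class.

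Among genes with a mean of at least 10 CPM, most of those low in 7-week replicate 3 were also low in 5-week replicate 5. Of the 1658 genes beyond 2-fold below the age mates in 7-week replicate 3, 97.2% were below the median of its age mates in 5-week replicate 5. The share over all genes of that level is not given here. Their median log2 deviation there was -0.85. The medians of 5-week replicate 5 were below 0 in every length class, at -0.24 to -0.07. Among the 7509 weaker tested genes the balance differed. There 7-week replicate 3 had 1400 genes beyond 2-fold below and 544 above its age mates, and 5-week replicate 5 had 194 and 1994. Of the 1658 genes of at least 10 CPM low in 7-week replicate 3, 23.3% to 45.5% were below the median of the age mates in the other 4 libraries of 5 weeks. At that level 323 genes were more than 2-fold above the age mates in 7-week replicate 3. In 5-week replicate 5 these were above the median in 81.4% of cases, with a median log2 deviation of 0.28. Across the 11965 genes the deviations of both libraries had a Spearman rho of 0.71, and the next highest rho of a 5-week with a 7-week library was 0.45. Their depth differed, with 21.6 M counts in 7-week replicate 3 and 12.004 M in 5-week replicate 5. With both set aside, which was decided once these values were known, edgeR called 78 higher and 115 lower genes, and 65 of the 113 higher and 86 of the 138 lower genes were still called.

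In the fit of all libraries, large fold changes were mostly falls of weakly expressed genes. A log2 fold change below -1 was fitted for 705 genes and one above 1 for 63, and of both sets together 1 gene was called. The 705 genes had a median level of 1.396 CPM, beside 17.4 CPM over all tested genes. Their highest 5-week library was replicate 5 in 427 and replicate 4 in 252, 60.6% and 35.7%, where these libraries were highest in 29.5% and 21.7% of all tested genes. All 7-week libraries were below all 5-week libraries in 37 of the 705, beside 217 (1.11%) of the 19474 tested genes. The 705 were picked for a large fall between these same libraries. Without 5-week replicate 5 the number of falls beyond 2-fold was 356. The filter and the method moved it too. With all libraries there were 44 rises and 375 falls with at least 1 CPM in 5 or more libraries, and 42 and 361 by limma-voom. The excess of falls was not kept without 7-week replicate 3 and 5-week replicates 4 and 5, with 329 rises and 203 falls, and limma-voom with sample quality weights gave 183 rises and 202 falls. Without 7-week replicate 3 alone there were 141 rises and 847 falls. Rises beyond 2-fold numbered 135 and 109 when 5-week replicate 4 or 5 was left out, and 38 when 7-week replicate 2 was.

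By level, genes below 1 CPM had a median log2 fold change of -0.43 (1439 genes) and those at 1 to 10 CPM one of -0.12 (6070 genes). At 10 to 100 CPM the median was 0.03 (9588 genes) and at 100 CPM and over 0.08 (2377 genes). Below 10 CPM, 5-week replicate 5 had 1994 genes more than 2-fold above its age mates, where the other 5-week libraries had 69 to 559. Medians by level without 5-week replicate 5 are not given here. Without 7-week replicate 3 the medians by level were -0.48, -0.16, -0.00 and 0.07. Called genes were then 0 higher and 3 lower, 13 and 49, 63 and 69, and 37 and 16 in order of rising level. These classes hold only genes tested in the fit of all libraries. A further called lower gene, at a mean of 0.547 CPM, was not tested in that fit. The lower genes outnumbered the higher ones in each class but the most strongly expressed, where the length term gave 19 of each. No identifier had reads in every 7-week library and none at 5 weeks. The reverse held for 1 identifier, with 17 counts at 5 weeks, 13 of them in 1 library.

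No difference between the ages in the spread of the libraries was detected. The mean distance of a library to the centroid of its age in log2 CPM was 65.2 ± 17.1 (SD, n = 5) for 5-week and 63.3 ± 29.2 (SD, n = 5) for 7-week libraries, a difference of -1.93 (exact permutation test, two-sided, p = 0.90). At 7 weeks replicate 3 lay at 114 and the others at 42.5 to 61.9. Without it the 7-week mean was 42.0 ± 7.32 (SD, n = 4) and the difference -23.2 (exact permutation test, two-sided, p = 0.056). The library set aside was the farthest of its age, which favours a smaller 7-week spread, and this p-value makes no allowance for that. At 5 weeks replicates 4 and 5 lay farthest out, at 80.5 and 86.8.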

How the data were processed

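RNA-seq libraries were made from total RNA of brain with a TruSeq v2 kit, per the labels' protocols. The deposited table holds raw read counts per gene. Per the submitters' processing notes the tools were featureCounts 1.4.6-p4, STAR 2.4.1d and CASAVA 1.8.2. Build, annotation and strand setting are not given in the sources used. A deposited RPKM table divides by library totals that were recycled down the rows, with 25 totals in rotation. The rotation gave back 99.99% of nonzero RPKM values within 0.0011, for genes with an RPKM sum above 1. The totals that match no library here, the start of the rotation and the gene lengths were fitted to these same values. With each library's own total, 0.6% were given back. RPKM therefore served only to solve gene lengths.

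Counts were analysed with edgeR 4.0.16 in R 4.3.3: TMM, filterByExpr, and a robust quasi-likelihood fit of all 20 libraries with 1 mean per age, contrast 7 minus 5 weeks, p-values adjusted over all tested genes after Benjamini and Hochberg, threshold 0.05. An SE is the log2 fold change divided by the square root of F. Log2 CPM used a prior count of 2. Alternatives were other scaling, filters, DESeq2 1.42.0, limma-voom (limma 3.58.1) and leaving out libraries. The length term was a lowess curve (span 0.3) of each library's deviation on log2 length. The code was tested on simulated data. Members, classes and tests were chosen with earlier results of these data known. Named genes had an adjusted p below 0.05, a mean of at least 1 CPM and complete separation, and the 2 largest changes in each direction were named. Replicate numbers follow accession order. No 2 libraries of an age agreed within sampling noise (smallest chi-square per degree of freedom 10.4).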

Additional observations from a re-analysis of the deposited data

Results flagged for a closer look

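A library was set apart where its gap to the nearest other library of its age was a larger share of the range than Dixon's 95% critical value of 0.71 for 5 samples. Of 26 groups of values checked, 6 were set apart, and chance gives about 1 in 20 for independent, normally distributed values. These values are not independent, since most of the 6 are overlapping measures of 7-week replicate 3. The number set apart therefore cannot be held directly against that rate. In 7-week replicate 3 these were the median Spearman rho with the other 9 libraries (0.927, the others 0.977 to 0.987), the distance to the centroid of its age (114, the others 42.5 to 61.9), the number of genes more than 2-fold below its age mates (1658, the others 11 to 52) and the number more than 2-fold above them (323, the others 12 to 93). In 5-week replicate 5 it was the number of genes more than 2-fold below its age mates (635, the others 40 to 154). In 5-week replicate 4 it was the share of counts in the 10 most abundant genes (5.01%, the others 3.63% to 3.98%). The levels of the 6 called genes gave no such library at either age.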

How the results depend on the processing

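No paired analysis was possible because replicate numbers follow accession order and pair no libraries. The count of 3 higher and 3 lower genes was 6 and 8 with at least 1 CPM in 5 or more libraries, 103 and 199 by DESeq2, 311 and 400 by limma-voom with sample quality weights (0.0833 for 7-week replicate 3), 0 and 0 in the fit of 5 and 7 weeks alone, and 14 and 17 with the length term. It was 3 and 2 by limma-voom, with DESeq2 size factors and with no filter, and 3 and 3 without the robust step. Leaving out 1 of the 20 libraries gave 1 to 113 higher and 2 to 138 lower genes. Without 7-week replicate 3, DESeq2 called 586 and 653, limma-voom 134 and 149, edgeR with DESeq2 size factors 124 and 127, with the CPM filter 136 and 162, with the length term 97 and 150, and with only 5 and 7 weeks 2 and 6. With 5-week replicate 5 also left out it was 78 and 115, and with 5-week replicate 4 removed in addition 30 and 63. Causes of these differences were not tested.

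The 251 genes called without 7-week replicate 3 rest on the 4 remaining 7-week libraries. Leaving out 1 more library gave 9 to 440 higher and 13 to 262 lower genes. The total was 392 without 5-week replicate 2. Among 7-week libraries it was 150 (replicate 1 left out), 32 (replicate 2), 31 (replicate 4) and 51 (replicate 5). Among older libraries it was 149 and 167 (10-week replicates 1 and 2) and 141 and 702 (14-week replicates 1 and 5). With 1 of the 10 libraries left out, separated genes ran from 146 to 1251 above and 247 to 716 below, and changes beyond 2-fold from 38 to 141 rises and 356 to 951 falls. With all libraries there were 196 rises and 3104 falls beyond 2-fold when no filter was used. The difference in spread was 5.69 among genes of at least 10 CPM (exact permutation p = 0.79) and ran from -23.2 to 8.19 without single libraries. The 4 named genes kept their direction under every alternative run. Complete separation of the ages, by which they were chosen, leaves little room for a reversal. With only the libraries of 5 and 7 weeks in the fit, none of them was called (edgeR adjusted p 0.32 to 0.48). Depth limits weak genes most: 7509 of the tested genes lay below 10 CPM.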
